A study of Mus musculus with 2 samples.

Results

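The immunoglobulin and IgA transport genes described here are Igkc, Igha, Ighm, Ighd, Jchain and Pigr, 6 of the 32285 genes measured in nuclei of the chronically inflamed mouse colon. They were chosen by exact gene symbol because Igkc led a mixed group of nuclei that came mostly from the WT library. The level of Igkc in a cluster rich in WT nuclei and its difference between the libraries are therefore given below as a description. The other members were added for their place in the same pathway.

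Frozen colon tissue was taken from WT mice and from HIF-1α KO mice (Ncr1cre+ Hif-1α fl+/fl+) aged 8 to 12 weeks. Cre was driven by the Ncr1 (NKp46) promoter, so Hif1a is deleted by design in NKp46+ innate lymphoid cells and not in B cells, plasma cells or epithelium. All animals of both genotypes received 2% dextran sodium sulfate (DSS), which injures the colon epithelium, in the drinking water for 3 days followed by 4 days of recovery, in 4 cycles, and there was no untreated group. Tissue of 3 animals per genotype was pooled into 1 library of nuclei. With 1 library per genotype no difference had a replicate check, no test between genotypes was possible, and all intervals below are 95% intervals that cover counting error only. The values are unique molecular identifiers (UMIs), each of which marks 1 captured RNA molecule.

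Plasma cells of the gut lamina propria secrete IgA. An IgA molecule pairs heavy chains, whose constant region is encoded by Igha, with light chains, in the mouse mostly of the κ type encoded by Igkc, and the J chain encoded by Jchain links IgA molecules into polymers. Pigr encodes the polymeric immunoglobulin receptor, which epithelial cells use to carry polymeric IgA from the lamina propria into the lumen. Ighm and Ighd encode the constant regions of IgM and IgD, the antigen receptors of naive B cells. Messenger RNA of plasma cells is abundant in the cytoplasm, which is lost or released when nuclei are prepared, and released RNA can be captured together with nuclei of any other cell type.

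In GRCm38 the 3 heavy chain members lie on the reverse strand of chromosome 12. Igha spans 113254830 to 113260236, Ighd 113406604 to 113416324 and Ighm 113418558 to 113422730, and a gap of 2233 bases separates Ighd from Ighm. Igkc is a single exon of 532 bases on the forward strand of chromosome 6 (70726435 to 70726966) that lies inside the long noncoding RNA gene Gm30211 on the same strand. Reads that overlap both genes could be assigned to neither or be divided between them, so the Igkc counts are uncertain to that extent. Gm30211 itself had 54 WT and 78 HIF-1α KO UMIs. Jchain spans 88519809 to 88527891 on the reverse strand of chromosome 5. Pigr spans 130826684 to 130852249 on the forward strand of chromosome 1.

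The RefSeq promoter table (GRCm38.p6) held 2 of the 6 members, Pigr and Jchain, and the 250 bases before the start of each are shown because these genes mark the opposite ends of IgA transport, the plasma cell and the epithelium. The Pigr sequence lies on the forward strand at chr1:130826434-130826683 and the Jchain sequence on the reverse strand at chr5:88527898-88528147, both written 5′ to 3′. Capitals mark the E-box CACGTG, which starts 71 bases before the Pigr start.
Pigr: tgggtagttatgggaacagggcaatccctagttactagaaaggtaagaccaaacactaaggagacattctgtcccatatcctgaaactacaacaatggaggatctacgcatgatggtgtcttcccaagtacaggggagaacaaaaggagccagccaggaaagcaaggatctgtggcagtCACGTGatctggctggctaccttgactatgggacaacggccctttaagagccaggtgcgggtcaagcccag
Jchain: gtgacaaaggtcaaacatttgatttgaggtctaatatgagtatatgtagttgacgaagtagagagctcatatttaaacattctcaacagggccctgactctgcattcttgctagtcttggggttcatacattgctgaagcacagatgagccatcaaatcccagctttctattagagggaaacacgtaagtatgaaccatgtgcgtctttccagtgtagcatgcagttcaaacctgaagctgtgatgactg
The letters searched on both strands were the E-box CACGTG, the octamer ATGCAAAT, the STAT site TTCNNNGAA and the TATA box TATAAA. Only the E-box in Pigr matched, and 6.02% of 32851 promoter windows of this length held an E-box. The octamer was found in 1.60%, the STAT site in 7.02% and the TATA box in 12.4% of these windows. A match or its absence describes these letters only.

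After nuclei with 400 to 5000 detected genes and at most 10% mitochondrial UMIs were kept, 4884 nuclei remained in WT (of 4896) and 4702 in HIF-1α KO (of 4772). The deposited libraries held 13492810 and 25489277 UMIs, and the median nucleus had 2059 UMIs in WT and 4197 in HIF-1α KO. Only 3 barcodes occurred in both libraries. Hif1a had 2284 and 4699 UMIs, and Ncr1 had 1 and 0, so these nuclei hold no usable record of the deletion in NKp46+ cells. Nuclei were grouped into 25 clusters without the member genes and named from markers of other genes. The 9 general epithelial markers were all detected in the epithelial classes, with a summed level of 3397 (WT) and 4244 (HIF-1α KO) UMIs per 1000000 UMIs (CPM). The immune-like class held 159 WT and 282 HIF-1α KO nuclei. Of these, 94 and 156 were B cell-like, and the 9 B cell markers summed there to 3501 and 5806 CPM against 307 and 290 CPM outside the immune-like class. No cluster met the rule for plasma cells. Of 13 plasma cell genes, 8 in WT and 11 in HIF-1α KO were detected in the B cell-like nuclei, with sums of 491 and 644 CPM against 92.4 and 95.9 CPM outside the immune-like class. Tnfrsf17 had no UMI in these nuclei, and Jsrp1 none in any nucleus.

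Immunoglobulin UMIs were few and spread over nearly every class of nuclei. Igkc had 583 UMIs in WT, or 44.0 CPM (40.5 to 47.7), and 405 in HIF-1α KO, or 17.2 CPM (15.5 to 18.9). Igha had 347 UMIs in WT (26.2 CPM, 23.5 to 29.1) and 275 in HIF-1α KO (11.6 CPM, 10.3 to 13.1). Jchain had 184 UMIs in WT (13.9 CPM, 11.9 to 16.0) and 153 in HIF-1α KO (6.48 CPM, 5.50 to 7.59). All 3 genes of secreted IgA thus had a lower share of the UMIs in the HIF-1α KO library, by -1.36 (-1.54 to -1.17) for Igkc, -1.17 (-1.40 to -0.94) for Igha and -1.10 (-1.42 to -0.78) for Jchain on the log2 scale of CPM.

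The B cell receptor genes had fewer UMIs. Ighm had 90 UMIs in WT (6.79 CPM, 5.46 to 8.34) and 100 in HIF-1α KO (4.24 CPM, 3.45 to 5.15), a log2 ratio of -0.68 (-1.11 to -0.25). Ighd had 71 UMIs in WT (5.35 CPM, 4.18 to 6.75) and 90 in HIF-1α KO (3.81 CPM, 3.07 to 4.69), a log2 ratio of -0.49 (-0.95 to -0.02). Pigr had 9779 UMIs in WT and 18455 in HIF-1α KO, with nearly the same share of UMIs, 738 CPM (723 to 752) and 782 CPM (771 to 793), and a log2 ratio of 0.08 (0.05 to 0.12).

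By the rule of a 2-fold ratio and a minimum of 50 UMIs over both libraries, 3 of the 6 members were lower in HIF-1α KO and 0 higher, beside 7.21% of 14393 genes lower and 5.82% higher. The 3 are Igkc, Igha and Jchain. The rule that chose the members used this contrast for Igkc, so its count carries no weight as evidence. After each nucleus was thinned to 1000 UMIs the ratios were -0.82 for Igkc, -0.87 for Igha and -0.53 for Jchain, so none of the 3 stayed past 2-fold. The median log2 ratio of the 6 members was -0.89, and that of all genes -0.01.

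The size of this difference rested on the scale. The HIF-1α KO nuclei held more UMIs each, and per 100 nuclei Igkc had 11.9 UMIs in WT (11.0 to 12.9) and 8.61 in HIF-1α KO (7.79 to 9.49), a log2 ratio of -0.47 (-0.66 to -0.29) in place of -1.36. Igha had 7.10 and 5.85 UMIs per 100 nuclei and Jchain 3.77 and 3.25, and the interval of the Jchain ratio included 0 (-0.53 to 0.11). Ighm, with 1.84 and 2.13, and Ighd, with 1.45 and 1.91, turned to a higher value in HIF-1α KO on this scale, with intervals that included 0. Pigr had 200 and 392 UMIs per 100 nuclei. The CPM of the immunoglobulin genes were thus lower in a library in which each nucleus contributed more UMIs of other genes, whereas Pigr kept its share of those UMIs. Fewer plasma cells, less RNA per plasma cell and less released RNA cannot be told apart in these sums.

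Across classes the secreted IgA genes were found almost everywhere. Of the Igkc UMIs, 87.7% in WT (84.7 to 90.2) and 87.2% in HIF-1α KO (83.5 to 90.3) lay outside the immune-like class, where 96.7% and 94.0% of the nuclei lay. The shares were 90.5% and 92.4% for Igha and 83.7% and 85.0% for Jchain. In WT, Igkc was present at 42.4 CPM (34.3 to 51.9) in absorptive colonocyte-like, 35.6 (27.6 to 45.2) in goblet-like, 50.1 (34.5 to 70.3) in stem-like, 36.6 (23.5 to 54.5) in smooth muscle-like and 52.9 (36.4 to 74.2) in fibroblast-like nuclei. The intervals of these classes overlapped. Of the 33 Igkc UMIs in fibroblast-like WT nuclei, 16 came from 3 nuclei, and without these the level was 27.7 CPM (16.1 to 44.3). In HIF-1α KO the same classes had 14.6 (11.7 to 18.0), 14.5 (11.4 to 18.2), 8.65 (3.96 to 16.4), 27.4 (14.6 to 46.8) and 26.7 CPM (13.3 to 47.7).

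**Figure D1:**
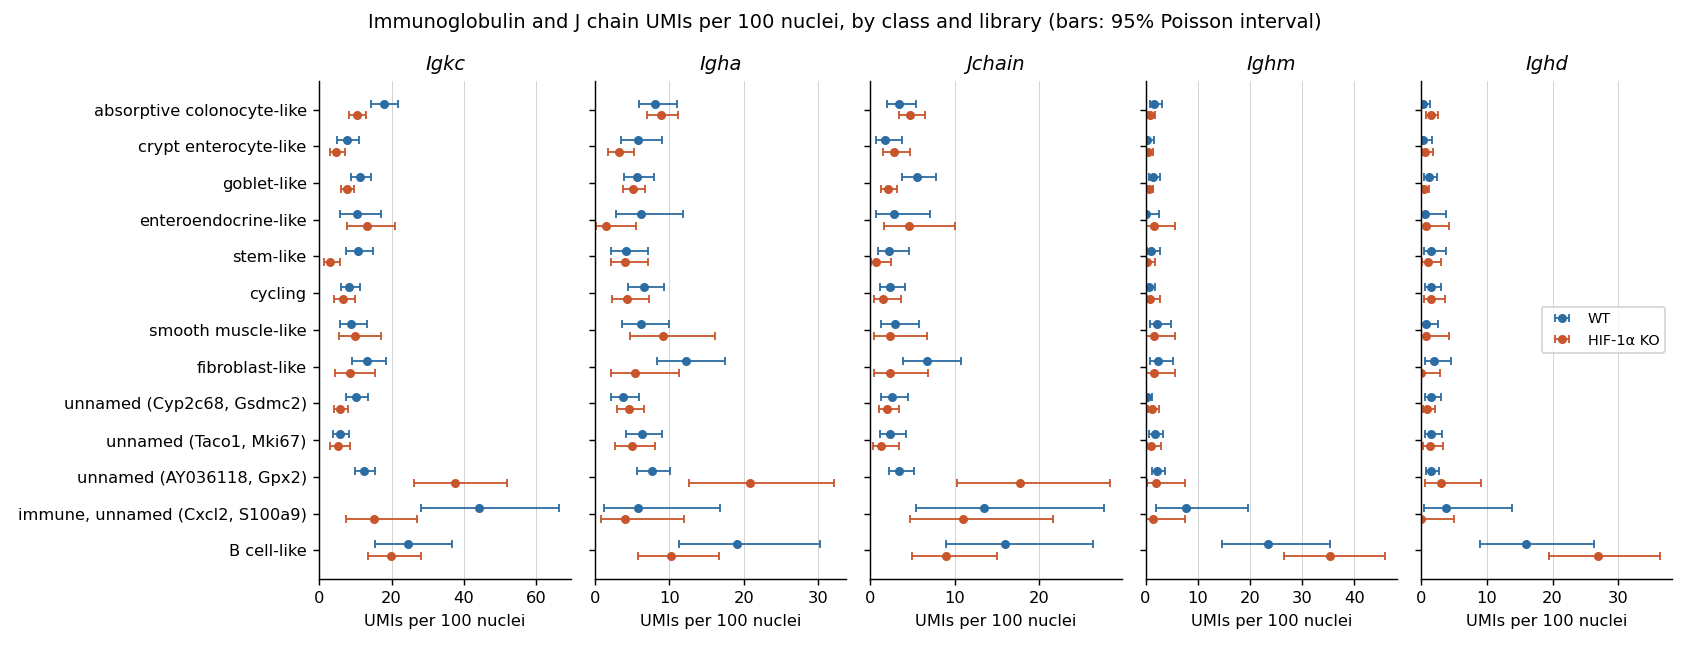
UMIs of Igkc, Igha, Jchain, Ighm and Ighd per 100 nuclei (x axis, linear) in each class with at least 50 nuclei in both libraries (y axis), for WT in blue and HIF-1α KO in orange, with 95% Poisson intervals as bars. Igkc, Igha and Jchain have UMIs in all the classes shown, whereas Ighm and Ighd stand out in the B cell-like nuclei, at 23.4 and 16.0 UMIs per 100 nuclei in WT and 35.3 and 26.9 in HIF-1α KO.

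The share of nuclei with an Igkc UMI told B cell-like nuclei only weakly from other nuclei, and over 13 WT classes it ran from 2.53% to 14.3%. It was 14.9% of the B cell-like WT nuclei, at a median of 1469 UMIs per nucleus, and 14.0% of the absorptive colonocyte-like nuclei, at a median of 3522. In smooth muscle-like WT nuclei, at a median of 1947 UMIs, the share was 8.09%. In HIF-1α KO it was 16.0% of the B cell-like nuclei (median 1820 UMIs) and 6.95% of all nuclei outside the immune-like class (median 4384). Smooth muscle and absorptive cells do not make antibodies, and the source of the Igkc UMIs in their nuclei was not tested. Empty droplets were not analysed here, so free RNA was not measured directly.

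Within each library the proportions of the secreted IgA genes to each other were set side by side in 3 sets of nuclei. Each value has its own interval, and no interval of a difference between sets was computed. In WT there were 54.7 Igha UMIs per 100 Igkc UMIs (44.6 to 67.0) in epithelial classes and 82.5 (58.6 to 116) in stromal, endothelial and neural classes, and 78.3 (39.8 to 152) in B cell-like nuclei. In HIF-1α KO these values were 73.0 (59.5 to 89.5), 63.9 (36.1 to 111) and 51.6 (26.4 to 97.3). For Jchain they were 28.8, 36.2 and 65.2 per 100 Igkc UMIs in WT, and 37.8, 27.8 and 45.2 in HIF-1α KO, highest in B cell-like nuclei in both. The intervals of the 3 sets overlapped for both genes in both libraries, and those of the B cell-like nuclei were wide. For Igha, not every single class overlapped with the pooled epithelial classes. The interval was 2.51 to 43.2 in the WT unnamed immune cluster led by Cxcl2 and S100a9, from 3 Igha and 23 Igkc UMIs. It was 1.32 to 49.6 in HIF-1α KO enteroendocrine-like nuclei, from 2 and 17 UMIs. In the other library each of these classes overlapped with the epithelial interval. Other single classes are not given here.

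**Figure D2:**
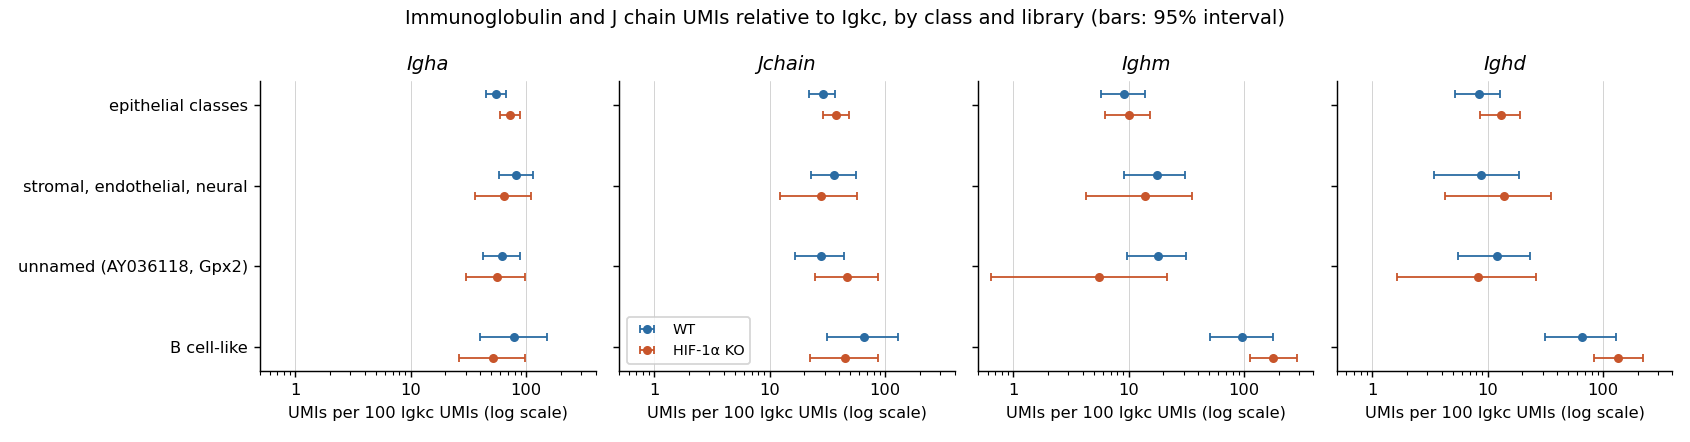
UMIs of Igha, Jchain, Ighm and Ighd per 100 Igkc UMIs (x axis, log scale) in the pooled epithelial classes, the pooled stromal, endothelial and neural classes, the unnamed cluster led by AY036118 and Gpx2, and B cell-like nuclei, with 95% intervals as bars. The Igha and Jchain intervals of epithelial, stromal and B cell-like nuclei overlap within each library, and Ighm and Ighd are higher relative to Igkc in B cell-like nuclei, at 95.7 and 65.2 in WT and 177 and 135 in HIF-1α KO.

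Ighm and Ighd had another distribution. In B cell-like nuclei Ighm stood at 142 CPM (89.0 to 215) in WT and 162 (122 to 211) in HIF-1α KO, and Ighd at 96.9 (54.2 to 160) and 124 (89.4 to 168). Outside the immune-like class Ighm stood at 4.85 CPM (3.73 to 6.21) and 1.78 (1.28 to 2.42), and Ighd at 4.16 (3.12 to 5.43) and 2.09 (1.54 to 2.76). Per nucleus, Ighm was 17.6-fold higher in B cell-like nuclei than in the other nuclei of WT (10.3 to 28.9) and 38-fold higher in those of HIF-1α KO (24.9 to 58.4). For Ighd these folds were 14.0 (7.32 to 25.1) and 24.8 (16.0 to 38.3). The same comparison gave 2.26 (1.42 to 3.43) and 2.49 (1.67 to 3.60) for Igkc, 2.88 (1.69 to 4.63) and 1.78 (1.00 to 2.96) for Igha and 4.90 (2.68 to 8.33) and 3.05 (1.62 to 5.31) for Jchain. Without nuclei of 5 or more UMIs of Igkc, Igha and Jchain, the WT folds were 1.51 (0.818 to 2.56) for Igkc, 1.72 (0.817 to 3.21) for Igha and 2.20 (0.793 to 4.90) for Jchain, all with intervals that included 1, since 2 of the 94 nuclei held 9 of 23 Igkc, 8 of 18 Igha and 9 of 15 Jchain UMIs. The B cell-like nuclei, which made up 1.92% (WT) and 3.32% (HIF-1α KO) of each library, held 24.4% (16.0 to 34.6) and 55.0% (44.7 to 65.0) of all Ighm UMIs. A UMI of Ighm or Ighd was found in 28 B cell-like nuclei of WT and in 55 such nuclei of HIF-1α KO, or 29.8% and 35.3%, against 2.33% and 1.90% outside the immune-like class. Both genes together were found in 5 and 13 B cell-like nuclei.

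Within B cell-like nuclei Ighm and Ighd did not differ between genotypes beyond counting error, with log2 ratios of 0.19 (-0.54 to 0.98) and 0.36 (-0.52 to 1.31) from 22 and 55 and from 15 and 42 UMIs. For Igkc the ratio was -0.70 (-1.52 to 0.15), from 23 and 31 UMIs. For Igha it was -1.30 (-2.37 to -0.24), from 18 and 16 UMIs, and for Jchain -1.23 (-2.39 to -0.08), from 15 and 14 UMIs. Without nuclei of 5 or more UMIs of the secreted IgA genes these were -0.88 (-2.22 to 0.49) and -0.27 (-1.83 to 1.45). At the minimum of 50 UMIs Igkc, Ighm, Ighd and Pigr could be judged there and 0 passed 2-fold, beside 6.71% of 2295 genes (5.88% higher and 0.828% lower). Per nucleus all of these intervals but that of Pigr (0.50 to 1.35) included 0.

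Nuclei with many UMIs of the secreted IgA genes were rare. Of the WT nuclei, 696 had exactly 1 UMI of Igkc, Igha and Jchain together, 93 had 2, 22 had 3 and 13 had 5 or more. In HIF-1α KO these numbers were 562, 67, 21 and 8. Among nuclei with an Igkc UMI, 86.4% in WT and 90.6% in HIF-1α KO had only 1. The nuclei with at least 5 UMIs of the 3 genes held 13.5% of these UMIs in WT and 7.92% in HIF-1α KO.

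**Figure D3:**
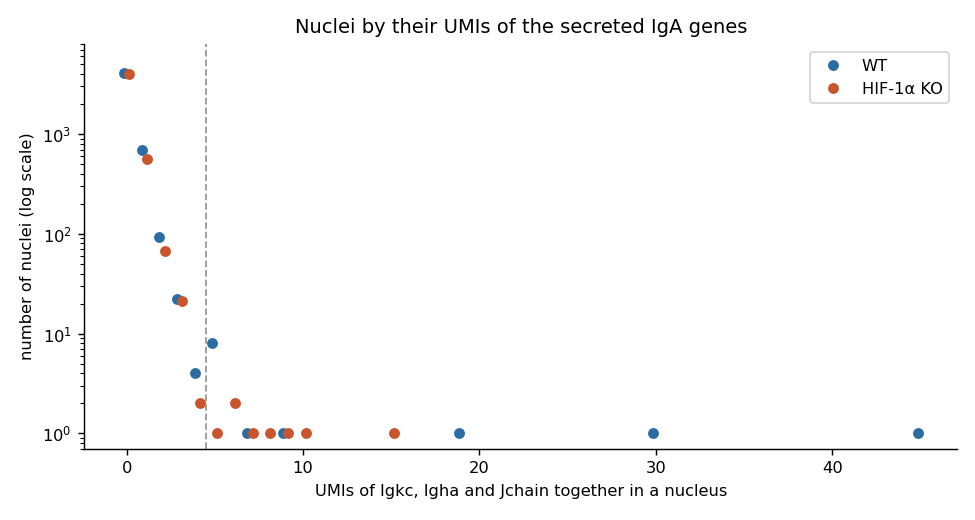
Number of nuclei (y axis, log scale) by their UMIs of Igkc, Igha and Jchain together (x axis), WT in blue and HIF-1α KO in orange. The dashed line separates nuclei with 5 or more UMIs, 13 in WT and 8 in HIF-1α KO, and 3 WT nuclei with 19, 30 and 45 UMIs stand apart from the rest.

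The WT nucleus with the most had 26 Igkc, 11 Igha and 8 Jchain UMIs among 7654 UMIs, with none of Ighm or Ighd. It also held UMIs of Tnfrsf17, the receptor for plasma cell survival factors, of Derl3, which acts in the quality control of secreted proteins, and of Pou2af1, Irf4, Eaf2, Xbp1, Prdm1 and Tent5c. It fell into the T cell and innate lymphoid-like cluster, where it alone carried all 26 Igkc UMIs of 13 WT nuclei, so the Igkc level of that cluster in WT is the level of 1 nucleus. A further WT nucleus, placed among fibroblast-like nuclei, had 12 Igkc, 12 Igha and 6 Jchain UMIs together with 1 UMI of Mzb1, a chaperone of antibody assembly, and 3 of Pou2af1. A B cell-like WT nucleus had 9, 6 and 4 UMIs and 1 of Mzb1. The highest HIF-1α KO nucleus had 8 Igkc, 6 Igha and 1 Jchain UMIs with 1 of Irf4. Of the 13 WT nuclei with 5 or more UMIs of the secreted IgA genes, 5 held a UMI of at least 1 of 8 plasma cell genes, and of the 8 HIF-1α KO nuclei 2 did. Over all nuclei, 5.12% in WT and 6.74% in HIF-1α KO held a UMI of at least 1 of these 8 genes. Igkc, Igha and Jchain occurred together in 8 WT and 6 HIF-1α KO nuclei.

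Plasma cells were also sought without any member gene, as nuclei with UMIs of at least 2 of Mzb1, Derl3, Tnfrsf17, Pou2af1, Irf4, Eaf2, Jsrp1 and Slamf7. This gave 14 WT nuclei, or 0.287% (0.157 to 0.480), and 29 HIF-1α KO nuclei, or 0.617% (0.413 to 0.885). The log2 ratio of these shares was 1.11 (0.14 to 2.14), and its interval came to include 0 after thinning to 1000 UMIs, with 4 and 10 nuclei (-0.40 to 3.52), and with at least 3 of the 8 genes, with 2 and 6 nuclei (-0.84 to 4.98). Of the 14 and 29 nuclei, 7 and 21 were B cell-like, and only 3 and 1 had 5 or more UMIs of Igkc, Igha and Jchain. They held 40 Igkc, 28 Igha and 17 Jchain UMIs in WT, and 18, 3 and 4 in HIF-1α KO. Pou2af1, Eaf2 and Slamf7 are also expressed in B cells and held most of the UMIs of the 8 genes. Many of their UMIs lay in other nuclei. Pou2af1 was found in 127 WT and 105 HIF-1α KO nuclei, of which 28 and 56 were B cell-like. Eaf2 was found in 92 and 178 nuclei, of which 8 and 22 were B cell-like. With Pou2af1, Eaf2 and Slamf7 left out the numbers of plasma marker nuclei were 1 and 0, too few to compare.

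The level of the secreted IgA genes followed the depth of a nucleus less than the level of Pigr did. Outside the immune-like class, WT nuclei with under 2000 UMIs had 7.40 Igkc UMIs per 100 nuclei (6.32 to 8.62) and those with at least 8000 had 28.2 (19.4 to 39.6). This is a 3.81-fold difference (2.54 to 5.56) over a 6.80-fold difference in median depth. In HIF-1α KO the shallowest nuclei had 9.84 (6.93 to 13.6) and the deepest 11.1 (8.65 to 13.9), a 1.12-fold difference (0.746 to 1.72) over 6.94-fold in depth. Without the nuclei of 5 or more UMIs of Igkc, Igha and Jchain, the log2 ratio of deepest over shallowest nuclei in HIF-1α KO was 0.72 (0.05 to 1.44) in place of 0.17 (-0.42 to 0.78). Igha differed 2.18-fold (1.19 to 3.73) in WT and 0.910-fold (0.577 to 1.45) in HIF-1α KO. Jchain differed 1.25-fold (0.330 to 3.37) and 1.11-fold (0.547 to 2.36). Pigr differed 8.60-fold (7.99 to 9.24) in WT and 6.33-fold (5.78 to 6.94) in HIF-1α KO, close to or above the difference in depth. The bins pool classes that were not matched. In WT the median was 3522 UMIs in absorptive colonocyte-like and 1992 in stromal, endothelial and neural nuclei. Pigr stood at 761 CPM in the WT epithelial classes and 322 in the stromal, endothelial and neural ones. The part of class in these folds was not tested.

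**Figure D4:**
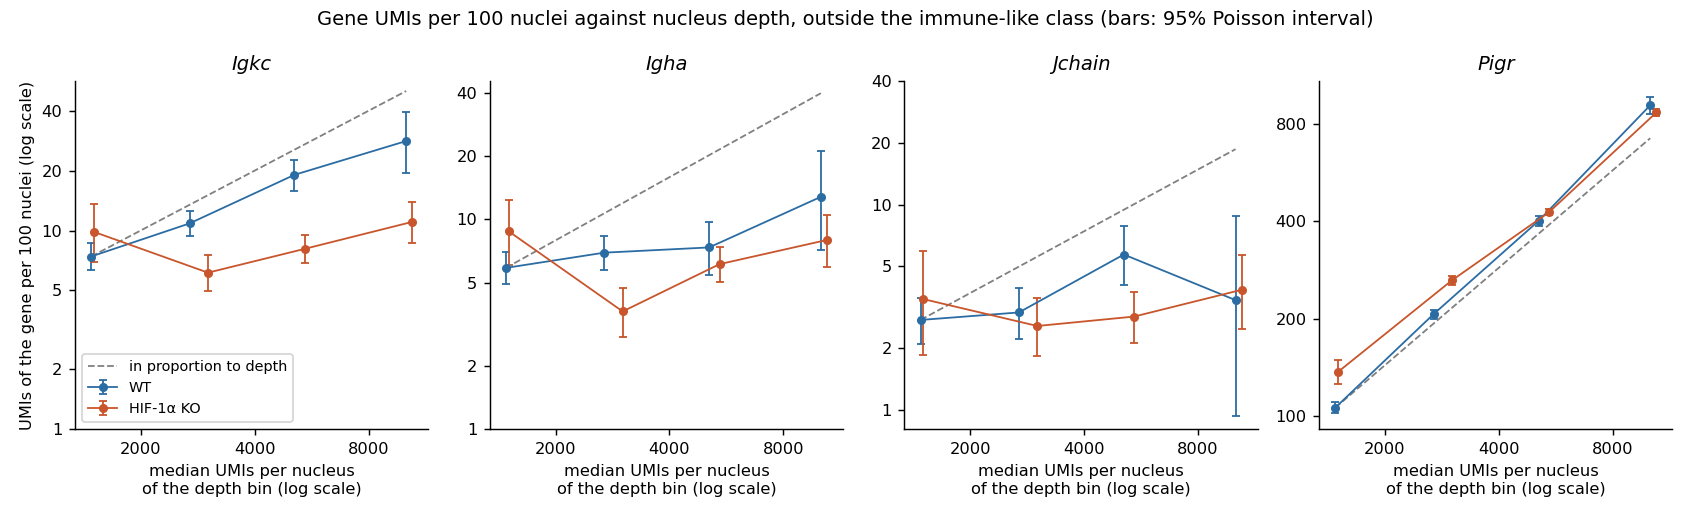
UMIs of Igkc, Igha, Jchain and Pigr per 100 nuclei (y axis, log scale) against the median UMIs per nucleus of 4 depth bins (x axis, log scale; under 2000, 2000 to 4000, 4000 to 8000 and at least 8000 UMIs), outside the immune-like class, with 95% Poisson intervals as bars. The dashed line is the WT value of the shallowest bin scaled in proportion to depth. Each bin pools classes, which were not matched between bins. Pigr lies near the line in both libraries, from 106 to 914 in WT and from 137 to 868 in HIF-1α KO, and the Igkc, Igha and Jchain points of the deepest nuclei lie below it.

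At matched depth the libraries still differed in Igkc, but not in every bin. Nuclei with under 2000 UMIs had 7.40 and 9.84 Igkc UMIs per 100 nuclei in WT and HIF-1α KO, a log2 ratio of 0.41 (-0.14 to 0.93), which was -0.14 (-0.81 to 0.47) without nuclei of 5 or more UMIs of the secreted IgA genes. The ratio was -0.82 (-1.19 to -0.46) from 2000 to 4000 UMIs, -1.24 (-1.59 to -0.88) from 4000 to 8000 and -1.35 (-1.96 to -0.71) above. Igha gave 0.58 (-0.02 to 1.14), or 0.07 (-0.64 to 0.72) without those nuclei, and then -0.93 (-1.41 to -0.46), -0.26 (-0.76 to 0.25) and -0.68 (-1.53 to 0.25) in the same order. Pigr was higher in HIF-1α KO in the 3 shallower bins, by 0.37, 0.35 and 0.09, and at -0.07 (-0.17 to 0.02) in the deepest. The classes within a bin were not matched.

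A cluster rich in WT nuclei was left unnamed, since it met the marker rule for no cell type. Whether this cluster is the mixed group by which the members were chosen was not tested. Its leading genes were the noncoding RNA AY036118, the epithelial peroxidase Gpx2 and ribosomal protein genes such as Rps9. It held 664 WT nuclei, 13.6% of that library, and 96 HIF-1α KO nuclei, or 2.04%. Igkc stood there at 84.8 CPM (67.6 to 105) in WT, from 83 UMIs, and at 151 CPM (106 to 209) in HIF-1α KO, from 36 UMIs. Igha stood at 52.1 and 84.0 CPM, and Jchain at 23.5 and 71.4 CPM. The HIF-1α KO levels rested on 4 of the 96 nuclei, which held 17 of the 36 Igkc, 10 of the 20 Igha and 11 of the 17 Jchain UMIs. Without them the levels were 82.0 CPM (49.4 to 128), 43.2 (20.7 to 79.4) and 25.9 CPM (9.51 to 56.4). Its nuclei were shallow in WT, with a median of 1407 UMIs, so per nucleus Igkc was 1.19-fold (0.926 to 1.5) the level of the other nuclei outside the immune-like class in WT and 5.12-fold (3.52 to 7.23) in HIF-1α KO, or 2.87-fold (1.71 to 4.56) without the 4 nuclei. Ribosomal protein genes took 0.822% and 1.75% of its UMIs, against 0.512% and 0.570% over all nuclei, and mitochondrial genes 0.268% and 1.21%, against 0.245% and 0.497%. Their part in the Igkc level was not tested. The 9 general epithelial markers summed there to 3640 and 5839 CPM and the 9 general immune markers to 566 and 319 CPM, against 233 and 118 CPM in all nuclei outside the immune-like class. The 9 B cell markers were all detected in its WT nuclei, at 503 CPM, and 7 of them in its HIF-1α KO nuclei, at 298 CPM, against 307 and 290 CPM outside the immune-like class. Cd79a and Cd22 were the ones at 0. The 4 nuclei are those of the 8 HIF-1α KO nuclei with at least 5 UMIs of Igkc, Igha and Jchain that lay in this cluster, and 0 of the 13 WT ones did.

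This unnamed cluster was also the exception in the comparison by class, through these 4 nuclei. Among 11 classes outside the immune-like class with at least 50 nuclei per library, Igkc, Igha and Jchain each had a lower CPM in HIF-1α KO in 10 and a higher CPM in this cluster, by a log2 ratio of 0.83, 0.69 and 1.60. Without nuclei of 5 or more UMIs these ratios were -0.05 (-0.85 to 0.68), -0.27 (-1.42 to 0.72) and 0.14 (-1.45 to 1.48), and Igkc and Igha were then lower in all 11 classes. The interval of the ratio lay below 0 in 6 classes for Igkc, 6 for Igha and 3 for Jchain. Per nucleus, Igkc was lower in HIF-1α KO in 8 of the 11 classes and Igha and Jchain in 7. Outside the immune-like class as a whole and on the CPM scale, 4 members passed 2-fold lower in HIF-1α KO (Igkc at -1.36, Igha at -1.13, Jchain at -1.07 and Ighm at -1.45) and 0 passed 2-fold higher, beside 7.98% of 14237 genes lower and 5.75% higher. Per nucleus none of the 4 passed 2-fold, with -0.44 for Igkc, -0.21 for Igha, -0.15 for Jchain and -0.52 (-1.13 to 0.07) for Ighm, and after thinning Igha (-0.93) and Jchain (-0.74) did not. In the epithelial classes 1 of 5 members that could be judged, Igkc at -1.39 (-1.65 to -1.13), passed 2-fold, and it was lower, beside 5.45% of 12830 genes lower and 5.34% higher. Per nucleus its ratio was -0.60 (-0.85 to -0.34). The members were chosen through Igkc, so its place in the counts outside the immune-like class and in the epithelial classes carries no weight as evidence.

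Pigr had its highest levels in epithelial and unnamed clusters, and its UMIs reached every class. In WT it was highest at 1102 CPM (1053 to 1153) in the unnamed cluster led by Cyp2c68 and Gsdmc2 and at 1009 (940 to 1082) in crypt enterocyte-like nuclei, whose intervals overlapped. Absorptive colonocyte-like nuclei had 778 (742 to 816), cycling nuclei 770 (729 to 814), goblet-like nuclei 763 (724 to 804) and stem-like nuclei 642 CPM (582 to 706). The first 3 of these did not differ beyond their intervals. Enteroendocrine-like WT nuclei had 371 CPM (318 to 431), smooth muscle-like 353 (309 to 401), fibroblast-like 335 (291 to 383) and endothelial-like 308 CPM (233 to 400), with overlapping intervals. In HIF-1α KO the order was led by the unnamed clusters of AY036118 and Gpx2 at 1255 CPM (1117 to 1406) and of Taco1 and Gm42418 at 1007 (934 to 1085), followed by that of Cyp2c68 at 906 (876 to 937), with overlapping intervals from there through crypt enterocyte-like to absorptive colonocyte-like nuclei. Enteroendocrine-like HIF-1α KO nuclei had 378 CPM (336 to 423), smooth muscle-like 400 (345 to 461), fibroblast-like 507 (440 to 580) and endothelial-like 518 CPM (397 to 664), so the fibroblast-like level lay above the enteroendocrine-like one. The pooled epithelial classes had 761 CPM (741 to 780) and the pooled stromal, endothelial and neural classes 322 (297 to 348), which is 42.3% of the epithelial level in WT, and 57.4% in HIF-1α KO (772 and 443 CPM). The immune-like class lay nearer to the epithelial level, at 456 CPM (380 to 543) in WT and 620 (558 to 687) in HIF-1α KO. Its unnamed cluster led by Cxcl2 and S100a9 had 709 CPM (576 to 863) in HIF-1α KO, beside 710 (687 to 734) in goblet-like nuclei.

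The goblet cell genes serve as a measure of secretory RNA in the wrong class, and their order against Pigr rested on the library. Relative to the same pooled epithelial classes, the stromal, endothelial and neural level of the 6 goblet genes was between 18.6% (Clca1) and 38.1% (Agr2) in WT, all below the share of Pigr. In HIF-1α KO it was between 25.7% (Clca1) and 60.2% (Zg16), and Zg16 alone was above Pigr. Relative to goblet-like nuclei, where these genes are highest, the shares were 10.6% in WT and 16.3% in HIF-1α KO for the mucin Muc2. The 9 general epithelial markers summed to 1617 and 2266 CPM in the stromal, endothelial and neural classes, against 3397 and 4244 CPM in the epithelial classes. Part of this level could be RNA from epithelial cells, and its size was not tested.

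**Figure D5:**
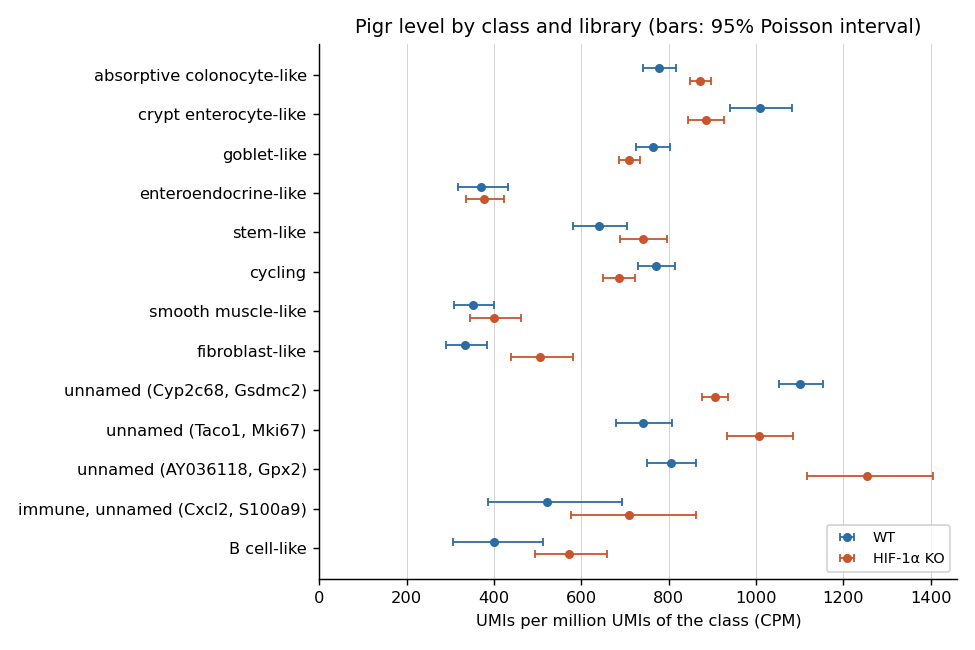
Pigr level in CPM (x axis, linear, from 0) in each class with at least 50 nuclei in both libraries (y axis), WT in blue and HIF-1α KO in orange, with 95% Poisson intervals as bars. Enteroendocrine-like, smooth muscle-like and fibroblast-like nuclei lie between 335 and 507 CPM, and the other named epithelial classes between 642 and 1009 CPM. B cell-like nuclei lie at 400 CPM in WT and 573 in HIF-1α KO. The unnamed immune cluster led by Cxcl2 and S100a9 lies at 523 and 709 CPM, the latter within the range of those epithelial classes.

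Between genotypes Pigr in the epithelial classes did not differ beyond counting error on the CPM scale, with 5836 UMIs in WT and 13037 in HIF-1α KO and a log2 ratio of 0.02 (-0.02 to 0.07). Clustered without integration of the libraries the ratio was 0.05, with an interval just above 0 (0.005 to 0.10). Its share was higher in HIF-1α KO in absorptive colonocyte-like nuclei, at 872 CPM (849 to 896) against 778, and lower in crypt enterocyte-like nuclei, at 885 (845 to 927) against 1009. Over the 11 classes the log2 ratios lay between -0.28 and 0.64, with the interval above 0 in 5 and below 0 in 4. Within the absorptive class, the cluster led by Ifit1bl1 and Clca4a had 1013 CPM (955 to 1073) in WT and 1058 (1022 to 1095) in HIF-1α KO, and the cluster led by Slc9a3 540 (498 to 586) and 670 (640 to 700). Among the leading genes of the former were Car4 and Aqp8, which mark surface colonocytes.

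Few of the other genes of the pathway passed 2-fold on the CPM scale. Their ratios per nucleus are not given here. For the members that scale gave higher values, such as -0.47 in place of -1.36 for Igkc over all nuclei. Of 76 genes in 7 lists, 54 had at least 50 UMIs, and 1 of these was past 2-fold higher and 4 past 2-fold lower in HIF-1α KO, beside 5.82% and 7.21% of all genes. Among 8 other immunoglobulin constant genes 2 could be judged. Ighg2b, for IgG2b, was lower, from 34 to 21 UMIs, by -1.53 (-2.39 to -0.70), and Iglc2, a λ light chain gene, had 26 and 28 UMIs and a log2 ratio of -0.73 (-1.55 to 0.10). The other 6 had between 0 and 18 UMIs per library, and Ighe had 0 in both, which allows up to 3 UMIs in each.

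Of 13 plasma cell genes 7 could be judged. Fkbp11, a folding enzyme of secretory cells, was higher, from 11 to 41 UMIs, by 1.07 (0.08 to 2.18), and the endoplasmic reticulum gene Creld2 was lower, from 123 to 99 UMIs, by -1.15 (-1.54 to -0.75). Xbp1, which drives the secretory programme of plasma and goblet cells alike, had 662 and 1222 UMIs and a ratio of 0.05, and Prdm1, which encodes the plasma cell regulator Blimp-1, had 139 and 449 and a ratio of 0.86. Of the Prdm1 UMIs, 74 and 391 lay in the epithelial classes. All 11 B cell genes could be judged and 0 passed 2-fold over all nuclei. The most abundant were Ralgps2 (0.22) and Bank1 (0.01). Outside the immune-like class 3 of 8 judged genes of this list passed 2-fold lower and 0 higher, beside 7.98% and 5.75% of all genes. Among them were Pax5, the regulator of B cell identity, with 227 and 111 UMIs (-1.86), and Cd22 with 72 and 33 (-1.95). The median log2 ratio of the judged genes of the list was -0.86 there, and that of all genes -0.02. In B cell-like nuclei 3 of 8 were higher, namely Ms4a1 (12 and 83 UMIs, 1.66), Bank1 (178 and 880, 1.18) and Blk (10 and 49, 1.16), and 0 were lower, beside 5.88% and 0.828% of all genes. The median of all genes was 0.21 there. These nuclei held 154833 UMIs in WT and 338593 in HIF-1α KO, so the minimum of UMIs over both libraries favoured genes higher in HIF-1α KO. The cluster was also named by B cell markers, and Bank1 was among its leading genes. A change within B cells was therefore not tested by these ratios.

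Of 14 genes for IgA induction and plasma cell survival 6 could be judged, and Cxcl12, a chemokine of survival niches, was lower with 88 and 58 UMIs (-1.43, -1.94 to -0.94). Outside the immune-like class 3 of 6 were lower and 0 higher on the CPM scale, beside 7.98% and 5.75% of all genes. The lower ones were Cxcl12 (-1.39), Tnfrsf13b, which encodes the receptor TACI (30 and 21 UMIs, -1.34), and Cd40 (40 and 33 UMIs, -1.10). The median of the list was -0.84 there. The most abundant genes of the list over all nuclei were Tnfsf13b, which encodes the B cell survival factor BAFF (214 and 475 UMIs, 0.32), and Tgfb1, which encodes a switch factor for IgA (178 and 244 UMIs, -0.38). Among 9 homing genes 7 could be judged, and Cxcl13, the chemokine of B cell follicles, was lower with 34 and 26 UMIs (-1.22, -2.01 to -0.44). The epithelial chemokine Ccl28, which attracts IgA plasma cells, had 1675 and 4810 UMIs and a ratio of 0.69 (0.61 to 0.77), and Ccl25 had 1004 and 1957 and a ratio of 0.13. All 8 genes of Fc receptors and IgA transcytosis and all 13 regulators of Pigr could be judged and 0 passed 2-fold. Among the former were the vesicle motor gene Myo5b (0.50, 0.47 to 0.54) and the kinase gene Yes1 (0.18), and among the latter Hnf4a (0.28) and Nfkb1 (0.25). Of the 6 goblet genes Tff3 was higher by 1.23 (1.08 to 1.38), and the most abundant, Muc2 and Fcgbp, had ratios of 0.23 and 0.53.

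As a description, genes were ranked by the correlation of their log2 CPM with that of Igkc and of Pigr over 29 points, each a class of at least 50 nuclei in 1 library. These points share libraries, depth and the RNA between nuclei. For Igkc the most alike of 10969 genes were Btla (Pearson r = 0.798), Rpl19 (0.792), Yod1 (0.783), Prkcb (0.779) and Ptprc (0.776). Btla, Prkcb and Ptprc are expressed in lymphocytes. For Pigr they were Dsc2 (0.886), Tep1 (0.863), Klf5 (0.855), Hnf4g (0.854) and Cgn (0.853), of which Dsc2, Klf5, Hnf4g and Cgn are epithelial genes of junctions and transcription.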

How the data were processed

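Single nuclei of 2 pooled colon libraries, 1 per genotype, were measured with droplet 3′ sequencing. The authors deposited counts of UMIs per gene and nucleus, made with Cell Ranger 7.0.1 on the mm10 (GRCm38) reference, without normalization. Whether intronic reads were counted is not given in the sources used here. Kept were nuclei with 400 to 5000 detected genes and at most 10% of UMIs from mitochondrial genes.

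Nuclei were clustered with Seurat 5.3.0 in R 4.3.3 (2000 variable features, canonical correlation anchors, 30 principal components, resolution 1). The member genes among the variable features, Igkc and Jchain, were removed. Clusters were named where at least 3 markers reached a log2 ratio of 1 with 10 CPM added and were found in 10% of nuclei, and no other class had more markers among the 10 leading genes. The thresholds of this naming rule were chosen with the data in view. A cluster so named is written with "-like". Clusters 0, 3 and 4 and 1 immune cluster stayed unnamed. Doublets were not removed. Scrublet (scanpy 1.11.5) called 1 of 9586 nuclei, which does not show that doublets were absent. Their part in nuclei with many UMIs of the secreted IgA genes was not tested.

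UMIs were summed per library and class. CPM carry exact 95% Poisson intervals, shares exact binomial intervals and log2 ratios (HIF-1α KO over WT) exact conditional intervals. A count of 0 allows up to 3 UMIs. Ratios of at least 2-fold were counted for genes with a sum of 50 UMIs or more over both libraries. On simulated counts of all nuclei, 200 genes were changed 4-fold, and 192 of these were among the 14391 genes tested. All 192 were called, as were 11 of 14199 unchanged genes. A 4-fold change lies well past the 2-fold rule, so these numbers do not give the reliability of the calls between the real libraries. Positions came from GENCODE M21.

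The members and all lists were chosen with earlier results of these data known. Named are the 6 members and, of each list, the genes past 2-fold and the 2 with the most UMIs over all nuclei, as well as the 5 genes most alike to Igkc and to Pigr (at least 200 UMIs). Other genes named in the text were chosen after their values were seen. Alternatives were other clusterings, all barcodes, thinning to 1000 UMIs per nucleus (63 HIF-1α KO nuclei and 0 WT nuclei were too shallow), equal weights per nucleus, UMIs per nucleus and nuclei with 5 or more UMIs of Igkc, Igha and Jchain left out. One gene of the B cell list is not reported here.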

Additional observations from a re-analysis of the deposited data

How the results depend on the processing

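No paired analysis was possible because each genotype had 1 library, and for the same reason no library could be left out. The values below are log2 ratios of HIF-1α KO over WT. Under the alternatives 24 ratios moved beyond their counting interval, 8 counts of genes moved by over 1.5 times, and 4 ratios whose interval excluded 0 changed sign. The other 85 values moved less, among them Pigr in the epithelial classes, which went from 0.02 to -0.013 with the unnamed clusters counted as epithelial. Other clusterings and all barcodes moved none of the ratios they were run for beyond its interval, but without integration the interval of epithelial Pigr (0.052) no longer included 0. The removal of nuclei with 5 or more UMIs of Igkc, Igha and Jchain, added after the data were seen, moved no ratio over all nuclei, outside the immune-like class or in B cell-like nuclei beyond its interval, but in the unnamed cluster led by AY036118 it gave -0.048 for Igkc, a change of sign, -0.27 for Igha and 0.14 for Jchain. Over all nuclei, thinning to 1000 UMIs gave -0.82 for Igkc, -0.87 for Igha, -0.53 for Jchain, 0.074 for Ighd and 0.12 for Pigr, so that Ighd changed sign. Equal weights per nucleus gave -0.92 for Igkc, -0.72 for Jchain, -0.012 for Ighd and 0.18 for Pigr. UMIs per nucleus, a scale added after the data were seen, gave -0.47 for Igkc, -0.28 for Igha, -0.21 for Jchain and 0.97 for Pigr, and Ighm (0.21) and Ighd (0.40) changed sign.

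Outside the immune-like class, Igkc was at -1.02 after thinning, -1.05 with equal weights and -0.44 per nucleus. Igha was at -0.93, -0.98 and -0.21 and Jchain at -0.74, -0.88 and -0.15, so both fell short of 2-fold under all 3. Ighm was at -0.52 per nucleus there, and Igkc at -0.60 in the epithelial classes. Pigr in the epithelial classes was at 0.070, 0.10 and 0.82. Among all genes, 1996 were higher and 3889 lower with no minimum of UMIs, and 1914 and 2377 at 1.5-fold. Of the pathway genes, 0 were higher and 1 lower after thinning, when 39 could be judged, and 9 and 10 at 1.5-fold. The share of plasma marker nuclei, higher in HIF-1α KO by 1.11, had no ratio when Pou2af1, Eaf2 and Slamf7 were left out (1 nucleus in WT, 0 in HIF-1α KO), an alternative added after the data were seen. In HIF-1α KO, the Igkc ratio of the deepest over the shallowest nuclei was 0.17, and 0.72 without nuclei of 5 or more UMIs. Depth limits the members other than Pigr, since most classes held under 50 UMIs of each. With pooled animals, differences between animals, sites of sampling and preparations cannot be told apart from genotype.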

Other observations

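Immunoglobulin variable genes were almost unrecorded. The 348 variable genes in the table held 14 UMIs together in WT and 32 in HIF-1α KO, against 583 and 405 UMIs of the single constant gene Igkc. No statement on antibody clones can be drawn from these libraries.

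Among nuclei outside the immune-like class, an Igha UMI was found in 9.79% of the WT nuclei with an Igkc UMI and in 5.82% of those without. In HIF-1α KO these shares were 7.49% and 4.98%. Deeper nuclei have more chances to hold either UMI, and depth was not matched in these shares.

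The unnamed immune cluster led by Cxcl2, S100a9 and Il1b had 23 Igkc UMIs in 52 WT nuclei (250 CPM, 159 to 376) and 11 in 73 HIF-1α KO nuclei (78.7 CPM, 39.3 to 141). Of the WT UMIs, 9 came from 1 nucleus, which had no Igha or Jchain UMI.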
